A study of Homo sapiens and Mus musculus with 213 samples.

Results

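The genes of synaptic vesicles and of the machinery that releases their content were followed in HEK293T cells whose MYC promoter had been edited. The set was given as a list of 48 symbols of genes with a place in the release machinery. It was chosen with earlier results of these data known, so its shares of called genes are descriptions of a list not drawn blind. All 48 were found among the 58336 genes of the deposited table. Of these 48, 39 reached a mean of 10 normalized counts across the 9 RNA-seq libraries and were tested. HEK293T cells descend from human embryonic kidney and are an immortalized line, not neurons. A G-quadruplex (G4) is a fold that single-stranded DNA rich in runs of guanine can take, and the MYC promoter holds a well known one. In MYC WT cells this motif is untouched and in MYC MUT cells point mutations in the G-runs keep it from folding. Both were sequenced in 3 libraries, labelled as biological replicates, and the other 3 libraries served only for the minimum and the spread. Edited cells were derived from single cells and carry the edit on every allele, and the labels do not say how many clones the libraries represent, so that what differs between clones and what the edit changes cannot be told apart. A sequencing pool is named for the MYC WT libraries in the deposited table but not for those of MYC MUT, and pool and line cannot be told apart either.

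Neurotransmitter is stored in synaptic vesicles, which dock at the active zone of a nerve terminal and fuse with its membrane when calcium enters. The membranes are drawn together by SNARE proteins, in neurons synaptobrevin (VAMP) on the vesicle and syntaxin and SNAP25 on the plasma membrane. Complexins and Munc13 proteins prepare the SNAREs, synaptotagmins sense calcium, and NSF with its SNAP adaptors takes used SNARE complexes apart. Many of these genes are expressed mainly in neurons and endocrine cells, and in other cells several are held silent by REST, a repressor that binds a DNA element called RE1, whereas vesicle fusion itself goes on in every cell. MYC, whose promoter was edited, encodes a transcription factor that binds E-box letters.

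The promoters of 4 genes are shown because they stand beside different patterns of expression described later. SYN1, UNC13A and SYT11 rose in MYC MUT against MYC WT, and STX1A was not called. The sequences are from RefSeq on GRCh38.p14, written 5′ to 3′ on the strand of the gene, with the 250 bases before the annotated start and the first bases of the transcript. Capitals mark exact matches to 4 sets of letters searched on both strands: the E-box CACGTG, the cAMP response element TGACGTCA, and the left and right parts of the RE1 element, TTCAGCACC and GGACAG.
SYN1, chrX:47619838-47620107, minus strand: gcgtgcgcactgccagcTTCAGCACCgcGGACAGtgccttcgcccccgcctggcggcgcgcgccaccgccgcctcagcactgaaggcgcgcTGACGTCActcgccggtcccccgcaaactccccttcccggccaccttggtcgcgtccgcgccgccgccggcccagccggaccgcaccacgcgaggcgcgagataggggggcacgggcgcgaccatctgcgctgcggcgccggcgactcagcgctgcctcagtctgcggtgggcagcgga
UNC13A, chr19:17688335-17688604, minus strand: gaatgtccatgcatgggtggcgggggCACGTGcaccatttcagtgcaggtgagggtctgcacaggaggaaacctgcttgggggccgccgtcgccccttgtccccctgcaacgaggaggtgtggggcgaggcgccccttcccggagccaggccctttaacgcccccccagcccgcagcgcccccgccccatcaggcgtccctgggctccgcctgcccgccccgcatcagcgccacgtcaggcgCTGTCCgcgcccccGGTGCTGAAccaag
SYT11, chr1:155859317-155859586, plus strand: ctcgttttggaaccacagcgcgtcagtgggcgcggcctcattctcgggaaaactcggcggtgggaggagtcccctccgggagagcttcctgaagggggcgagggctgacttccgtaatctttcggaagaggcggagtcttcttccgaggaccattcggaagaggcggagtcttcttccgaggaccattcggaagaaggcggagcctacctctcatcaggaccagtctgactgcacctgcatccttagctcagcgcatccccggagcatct
STX1A, chr7:73719650-73719919, minus strand: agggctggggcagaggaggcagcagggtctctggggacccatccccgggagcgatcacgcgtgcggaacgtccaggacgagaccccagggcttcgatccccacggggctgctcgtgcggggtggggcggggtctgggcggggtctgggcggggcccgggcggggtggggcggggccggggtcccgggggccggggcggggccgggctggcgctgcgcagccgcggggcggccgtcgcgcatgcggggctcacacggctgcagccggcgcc
In the SYN1 promoter the left RE1 letters occupied positions 18 to 26 and the right ones positions 29 to 34, counted from 1 at the 5′ end, and the cAMP response element positions 92 to 99. The UNC13A promoter held the E-box at positions 27 to 32 and, read on the other strand, the right RE1 letters at 243 to 248 and the left ones at 257 to 265. None of the 4 sets of letters occurred in the SYT11 or STX1A window.

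RefSeq promoter windows, which run to 50 bases past the start, were at hand for 39 of the 48 genes, with 54 windows in all, since some genes have several starts. SNAP25, CPLX1, DOC2A, DOC2B, SYT7, SYT12, SYT13, SYN3 and NRXN2 were not matched. The E-box was found in 3 of the 54 windows (5.56%), against 7.26% of all 35116 windows of the table. The right RE1 letters were in 12 windows (22.2%, against 20.5% of all), and the cAMP response element was in 2 windows (3.7%, against 1.85%). The left RE1 letters were in the SYN1 and UNC13A windows only, 2 of 54 (3.7%) against 0.376% of all. The spacing seen in SYN1, with 2 bases between both parts, occurred in 5 of all 35116 windows (0.0142%); it was looked up after the match had been seen. Both genes with the left RE1 letters rose in MYC MUT, where 12 of the 39 genes with windows rose in all. How many of the 128 genes with these letters over all windows rose was not taken, so this is a description of 2 genes only. A match is a description of letters and not evidence of binding, and its part in any result below was not tested. The windows were rich in G and C, with a median of 67% against 58.7% over all windows.

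In MYC WT the libraries held 68170323 to 79690245 reads on genes, and in MYC MUT 74270719 to 79913764. MYC itself had normalized counts of 20020.3, 28396 and 21580.1 in MYC WT against 10693, 11176 and 12399.8 in MYC MUT, and it fell (log2 fold change -1.02 ± 0.19 (SE), limma adjusted p = 0.00182). REST was at 2935 on average in MYC WT and 3086 in MYC MUT, without a call. Of 14 genes for REST and its corepressors 1 was called in MYC MUT, KDM1A, at -0.53 in log2 (limma adjusted p = 3.19e-05). That is 7.14% called lower, against 10.1% of all genes tested, and 0% called higher, against 11.3%. MYC WT replicate 1 stood apart from the other MYC WT libraries, with a chi-square per degree of freedom of 28.0 and 40.2 against them, whereas these gave 18 with each other and the MYC MUT pairs lay between 6.29 and 10.4. In HEK293T the summed normalized count of 19 kidney epithelium markers was 8480 to 9635 in MYC WT and 10390 to 11761 in MYC MUT, with UMOD at 0 in every library. Of 23 neuron markers 16 were tested, and the summed count of all 23 was 41180 to 44086 in MYC WT and 42573 to 43158 in MYC MUT. These sums rest largely on abundant genes that moved in opposite directions, so they do not show that single markers were unchanged. UCHL1 and NEFM fell from means of 14278 and 12296 in MYC WT to 8033 and 8182 in MYC MUT, and NEFL rose from 7014 to 14778. In bulk RNA, a change in the share of cells that express a gene and a change in RNA per cell cannot be told apart.

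In MYC MUT, the genes of vesicle release were mostly higher than in MYC WT or not called, and few were lower. Values are given as normalized counts, which are read counts divided by a size factor for each library, and log2 fold changes with their standard errors come from limma on log2(normalized count + 1), which understates the change of low genes. Calls required both an adjusted p below 0.05 and a change of more than 0.5 in log2. Of the 39 genes tested, 19 rose and 2 fell. That is 48.7% higher and 5.13% lower, where the background over all 20884 genes tested was 11.3% higher and 10.1% lower. The median log2 fold change was 0.35 over the 39 genes and -0.0034 over all genes tested. The lowest MYC MUT library lay above the highest MYC WT library for 20 of the 39 genes (51.3%, against a background of 25.9%), and the highest below the lowest for 8 (20.5%, against 26.4%), so that 28 genes (71.8%) did not overlap in either direction, against 52.3% of all. By the adjusted p alone, 26 genes (66.7%) passed, against 38.4%. Over all genes, 52.8% of those called in MYC MUT were higher, and 64.2% were so after scaling to equal totals, a scaling under which 1 of the 2 falling genes, UNC13B, lost its call, as it did under equal upper quartiles and with edgeR. No single scaling moved the median of all genes by more than 0.1 on the log2 scale. The 19 rising genes were SNAP25 among the SNAREs, CPLX1, UNC13A and SNPH among their regulators, 7 synaptotagmins, SYP, SYN1, SYN3, SV2A and SV2C on the vesicle, the glutamate transporter SLC17A7, RIMS1 at the active zone, and NRXN2.

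**Figure D1:**
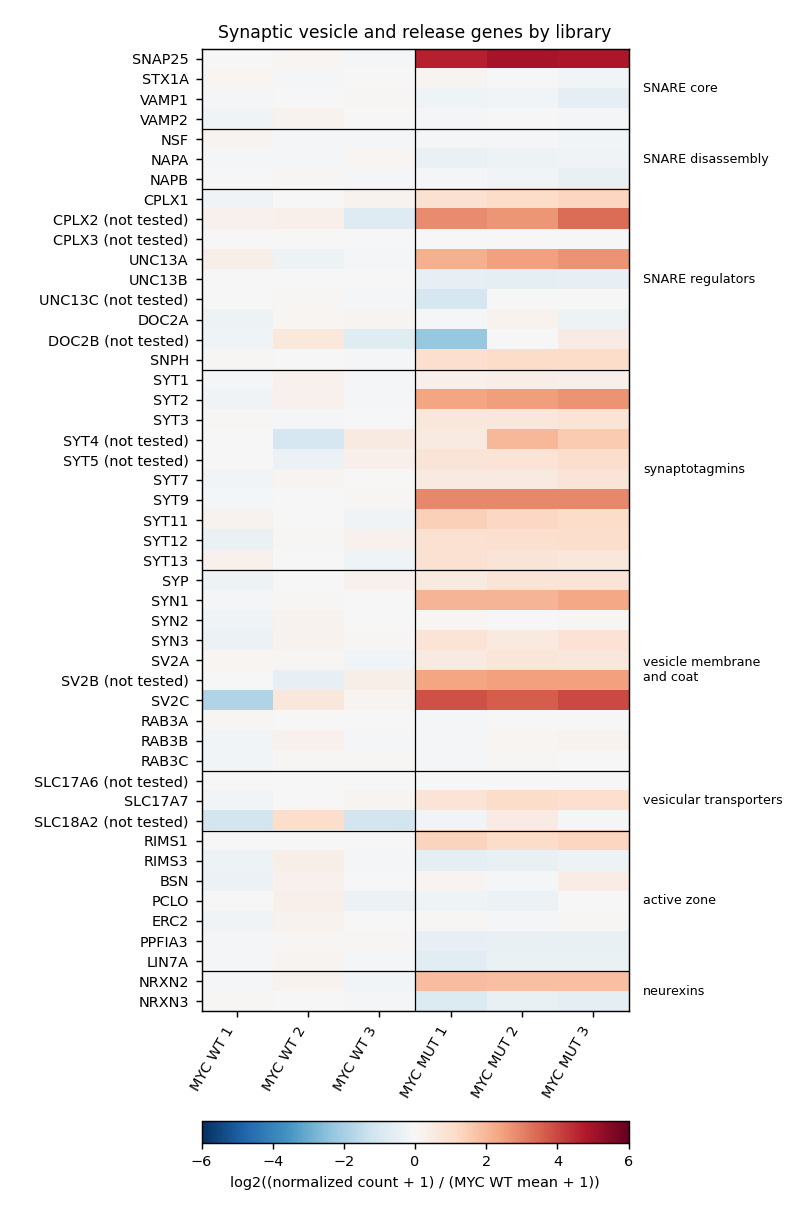
All 48 release genes (rows, grouped by role) in the 6 libraries of MYC WT and MYC MUT (columns); colour shows log2 of the normalized count + 1 divided by the MYC WT mean + 1, red above and blue below MYC WT. Rows that are high in all 3 MYC MUT libraries include SNAP25, SV2C, SYT9, SYT2, UNC13A and SYN1.

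SNAP25 and SV2C had a MYC WT mean under 10 and passed the minimum through MYC MUT alone, so that they had to differ. Among the 37 genes with a MYC WT mean of at least 10, 17 rose and 2 fell, where 10.4% of 20469 genes rose. Of the 28 genes with a MYC WT mean of at least 100 normalized counts, 8 rose and 2 fell, and 8.19% of the 15293 genes at such levels rose. Of the 12 genes with a MYC WT mean of at least 1000, 1 rose, SYP, and 2 fell, UNC13B and NRXN3. The share of all genes at that level was not taken, so this count is a description only. Levels of different genes can be compared per length only, as normalized counts per 1000 bases of merged exons. On that scale the highest levels in MYC WT were those of VAMP2 (994 per 1000 bases), NSF (644), NAPA (619.6) and RAB3A (474), none of which was called in MYC MUT. The genes that rose in MYC MUT had a median MYC WT level of 14.4 per 1000 bases, with a range of 0.208 to 232, and the 18 without a call had a median of 154 and a range of 45.9 to 994. These are descriptions, since the MYC WT mean also enters the fold change and 9 genes of low level were not tested.

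SNAP25, the plasma membrane SNARE of neurons, went from near absence to a clear level in MYC MUT. Its normalized counts (ENSG00000132639, chr20:10172395-10308258, plus strand) were 5.13, 5.61 and 4.81 in MYC WT against 156, 188 and 180.2 in MYC MUT. Every MYC MUT library was far above those of MYC WT. The log2 fold change of 4.83 ± 0.54 in MYC MUT is given as a description, since the direction was fixed by the minimum that the gene passed through MYC MUT. In reads, 547 in MYC MUT stood against 15 in MYC WT, a ratio after size factors of 33.8 (95% interval 20.3 to 60.8), which covers counting error only. Per 1000 bases of merged exons SNAP25 reached 8.58 in MYC MUT, under the 126 of its partner STX1A. Merged exons join all annotated transcripts and came to 20369 bases for SNAP25 and 3693 for STX1A. The size of this gap therefore depends on the annotation, and the mean normalized counts in MYC MUT were 174.7 and 466.

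The other core SNAREs were not called. STX1A, the syntaxin of the presynaptic membrane, had 497, 429.9 and 466 normalized counts in MYC WT against 519.5, 467 and 412 in MYC MUT. The libraries of both lines overlapped, and the 95% interval of the log2 fold change in MYC MUT ran from -0.29 to 0.29. VAMP2, the main synaptobrevin, had 2829, 3871 and 3418 in MYC WT against 3165, 3299 and 3108 in MYC MUT, and its interval in MYC MUT was -0.30 to 0.16. VAMP1, its relative, was at -0.33 ± 0.12 (log2) in MYC MUT without a call. The disassembly genes were not called either, with log2 fold changes in MYC MUT of -0.10 for NSF, the ATPase, -0.29 for NAPA and -0.23 for NAPB, its adaptors. For NAPA the adjusted p was small at a small difference (limma adjusted p = 0.013). NSF has a near-identical copy in the genome, so its reads may have been shared with it.

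Among the regulators of SNARE assembly, 3 of 5 tested genes rose in MYC MUT (60%, against 11.3% of all genes) and 1 fell. UNC13A, which encodes Munc13-1, the priming factor of neurons (ENSG00000130477, chr19:17601336-17688365, minus strand), had 58.4, 37.0 and 43.3 normalized counts in MYC WT against 205, 258 and 303 in MYC MUT. All MYC MUT libraries were above those of MYC WT. The rise in MYC MUT was 2.45 ± 0.22 (limma adjusted p = 1.29e-05). Its relative UNC13B, which is used outside neurons too, went the other way. UNC13B had 6705, 6909 and 6490.3 in MYC WT against 4753, 4482 and 4839 in MYC MUT, with every MYC MUT library below all of MYC WT. Its fall of -0.51 ± 0.06 (limma adjusted p = 7.03e-05) lay close to the fold threshold and lost the call, though not its small p, under 5 of the 21 alternatives that kept the thresholds, among them equal totals and leaving out MYC WT replicate 2 or MYC MUT replicate 2.

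CPLX1 encodes complexin, which clamps partly assembled SNARE complexes. It had 470.5, 532 and 632 normalized counts in MYC WT against 1039, 1164 and 1353 in MYC MUT. The lines did not overlap. Its log2 fold change was 1.12 ± 0.14 (limma adjusted p = 1.42e-04). SNPH, syntaphilin, which binds syntaxin and anchors mitochondria in axons, had 361, 334 and 328 in MYC WT against 694, 729 and 734 in MYC MUT. It was 2.11-fold as high on average in MYC MUT (1.07 ± 0.09, limma adjusted p = 7.44e-06), with a 95% interval of 0.88 to 1.27 for the log2 fold change. DOC2A, a calcium sensor of spontaneous release, had a log2 fold change of -0.039 and was not called.

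Of the 8 tested synaptotagmins 7 rose in MYC MUT (87.5%, against 11.3% of all genes) and all had a log2 fold change above 0. Their median was 0.90, and that of the SNARE regulators was 1.07; the role groups were not tested against each other. SYT9, a fast calcium sensor of release (ENSG00000170743, chr11:7238778-7469043, plus strand), had 91.2, 97.7 and 102 normalized counts in MYC WT against 717, 717 and 718 in MYC MUT. The lines did not overlap, the MYC MUT libraries lay close to each other, and the rise was 2.88 ± 0.16 (limma adjusted p = 5.82e-07). SYT2, the sensor of fast synapses in brainstem and muscle nerves, had 77.9, 109 and 88.6 in MYC WT against 483, 534 and 600.1 in MYC MUT. It rose in MYC MUT (2.55 ± 0.27, limma adjusted p = 4.23e-05).

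SYT11 and SYT13 rose as well. Both lack the calcium binding of the classical synaptotagmins, and SYT11 is known from endocytosis. SYT11 had 189.6, 162 and 139.6 normalized counts in MYC WT against 442, 388 and 357 in MYC MUT. The lines were fully separate, with a rise of 1.27 ± 0.22 in MYC MUT (limma adjusted p = 0.00108). SYT13, at lower counts, had 39.0, 32.6 and 26.95 in MYC WT against 61.9, 56.4 and 53.6 in MYC MUT. Its rise was 0.80 ± 0.21 (limma adjusted p = 0.011).

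SYT12 had 47.2, 66.2 and 74.1 normalized counts in MYC WT against 117, 122 and 132 in MYC MUT, while SYT3 had 279.8, 256 and 272 in MYC WT against 439, 436 and 481 in MYC MUT. For both genes each MYC MUT library was above all of MYC WT. SYT12, SYT3 and SYT7 rose there by 0.99 ± 0.23, 0.74 ± 0.10 and 0.63 ± 0.13 on the log2 scale (limma adjusted p = 0.00588, 2.06e-04 and 0.00315). SYT7 is the slow, high affinity calcium sensor of lasting release, and it had 456, 578 and 503 normalized counts in MYC WT against 743, 753 and 876 in MYC MUT. SYT1, the main sensor of forebrain synapses, had 576, 746 and 579 in MYC WT against 794, 830.2 and 778 in MYC MUT. It passed the adjusted p in MYC MUT (limma adjusted p = 0.0245) but its log2 fold change of 0.35 stayed within the threshold.

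**Figure D2:**
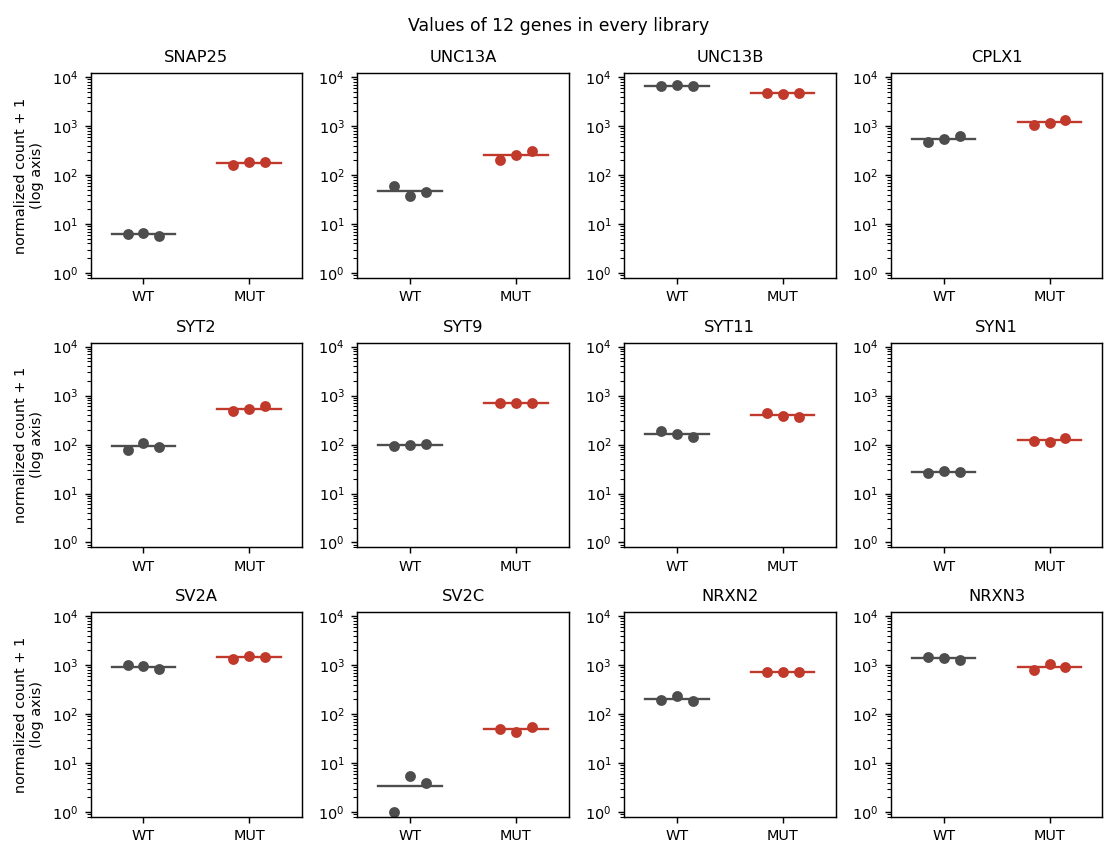
Normalized counts on a log scale (vertical axis, as normalized count + 1) in each of the 6 libraries for 12 selected release genes, with a point for each library and a horizontal line at the mean of each cell line. SNAP25, SV2C, UNC13A and SYT9 stand high in MYC MUT, SV2A differs less, and UNC13B and NRXN3 lie lower in MYC MUT than in MYC WT.

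Of the 9 tested genes of the vesicle membrane and coat, 5 rose in MYC MUT (55.6%, against 11.3% of all genes) and none fell. SYP encodes synaptophysin, an abundant membrane protein of the vesicle, and it had 1138, 1378 and 1652 normalized counts in MYC WT against 2026, 2400.2 and 2348 in MYC MUT. Its lowest MYC MUT library was above the highest of MYC WT, and it rose by 0.71 ± 0.13 (limma adjusted p = 0.00172). Synapsins tether vesicles to each other, and SYN1 (ENSG00000008056, chrX:47571901-47619857, minus strand) had 25.6, 28.1 and 26.95 in MYC WT against 115, 112 and 137 in MYC MUT. This was a rise of 2.13 ± 0.27 in MYC MUT (limma adjusted p = 1.29e-04). SYN3 rose less (0.79 ± 0.23, limma adjusted p = 0.019), from 70.7, 106 and 95.3 to 161, 138 and 167, and lost its call without replicate 1 of MYC WT or replicate 1 or 3 of MYC MUT (adjusted p of 0.00246 to 0.0659 over the alternatives). SYN2, the most strongly expressed of the 3 synapsins here per length, differed by 0.08 in MYC MUT, with an interval of -0.22 to 0.38.

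SV2 proteins are glycoproteins of the vesicle membrane and the entry receptors of botulinum toxin A. SV2C had 0, 4.49 and 2.89 normalized counts in MYC WT against 48.1, 41.8 and 52.6 in MYC MUT. It was near 0 in MYC WT, with 7 reads there against 149 in MYC MUT, a ratio of 19.7 (95% interval 9.33 to 49.9) after size factors. SV2A (ENSG00000159164, chr1:149903318-149917844, minus strand) was the most abundant SV2 gene per length in both lines, with 997, 955 and 815 in MYC WT against 1355, 1552 and 1488 in MYC MUT. It rose in MYC MUT by 0.67 ± 0.20 (limma adjusted p = 0.0212), a call lost without replicate 3 of MYC WT or replicate 2 or 3 of MYC MUT (adjusted p of 7.51e-08 to 0.085 over the alternatives). RAB3 GTPases dock vesicles, and none of RAB3A, RAB3B and RAB3C was called in MYC MUT, with log2 fold changes of -0.03, 0.10 and -0.0055. SLC17A7, which loads glutamate into vesicles, had 82.0, 89.8 and 100.1 in MYC WT against 159.9, 192 and 183 in MYC MUT. Each MYC MUT library was above all of MYC WT, and the rise was 0.97 ± 0.19 (limma adjusted p = 0.00198).

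At the active zone, where scaffolds hold vesicles beside calcium channels, 1 of 7 genes rose in MYC MUT (14.3%, near the 11.3% of all genes) and none fell. RIMS1, a central scaffold that binds RAB3 and Munc13, had 28.7, 29.2 and 29.8 normalized counts in MYC WT against 75.8, 63.2 and 74.0 in MYC MUT, a rise of 1.25 ± 0.21 (limma adjusted p = 9.37e-04). The large scaffolds BSN and PCLO and the ELKS protein ERC2 were not called, at 0.19, -0.19 and 0.025. PPFIA3, a liprin, and LIN7A, an adaptor of the same complexes, differed by -0.46 ± 0.09 and -0.47 ± 0.11 (limma adjusted p = 0.00214 and 0.00743), inside the fold threshold; without MYC WT replicate 1, the library that stood apart, both were called lower, and the count of falling genes was 4 in place of 2. LIN7A was also called lower without MYC MUT replicate 2 or 3. RIMS3, a short relative of RIMS1, was at -0.41 ± 0.21 (limma adjusted p = 0.141). Without that MYC WT library and a library that entered only the spread and also stood apart in its line, RIMS3 was called as well, which gave 5 falling genes.

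The neurexins, presynaptic adhesion proteins that reach across the cleft, moved in opposite directions in MYC MUT. NRXN2 (ENSG00000110076, chr11:64606174-64723197, minus strand) had 189, 233 and 181 normalized counts in MYC WT against 722, 712 and 707 in MYC MUT. The lines were fully separate, with a rise of 1.83 ± 0.21 in MYC MUT (limma adjusted p = 6.81e-05). NRXN3 had 1439, 1423 and 1299 in MYC WT against 797, 1034 and 923 in MYC MUT. Every MYC MUT library was below all of MYC WT, with a log2 difference of -0.60 ± 0.10 (limma adjusted p = 6.72e-04).

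**Figure D3:**
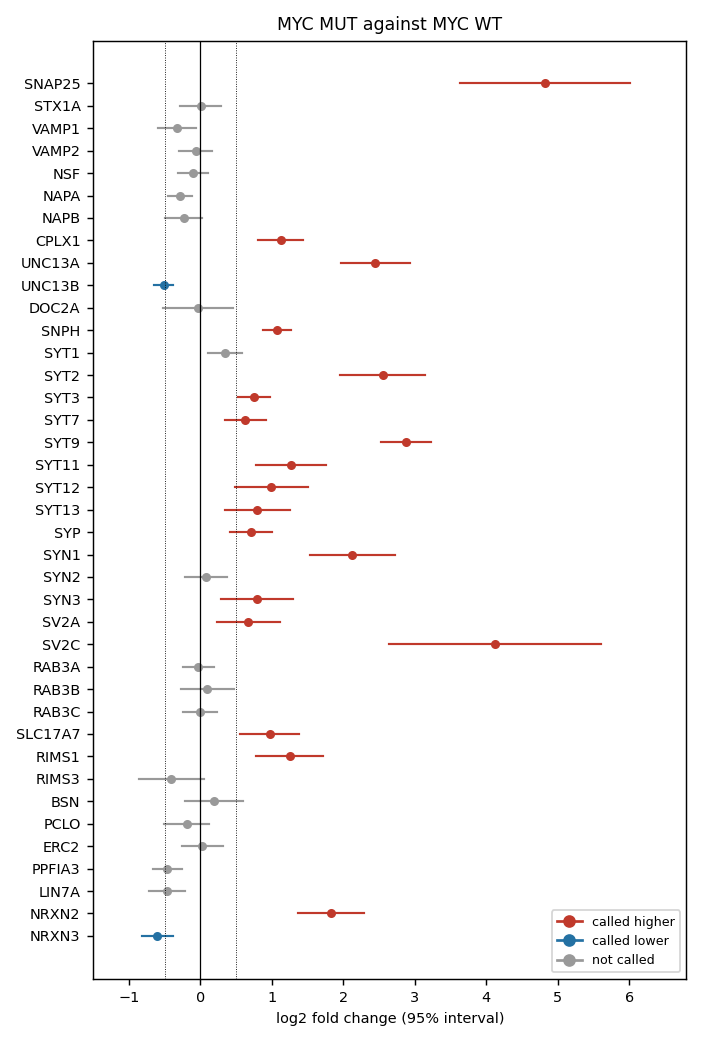
Log2 fold changes of the tested release genes in MYC MUT against MYC WT, with 95% intervals, ordered by role; red points are called higher, blue points called lower and grey points not called, and dotted lines mark the threshold of 0.5. Here 19 genes are called above 0 and 2 below.

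Members were also set beside their surroundings, taken as the median log2 fold change over all further tested genes that start within 5 Mb. In MYC MUT this median ranged from -0.36 around RIMS3 to 0.24 around VAMP2. UNC13B, with its log2 fold change of -0.51 in MYC MUT, had a neighbour median of -0.34. For SNAP25 the neighbour median in MYC MUT was 0.085. For NRXN2 it was 0.13. The part of larger chromosome regions in these results was not tested.

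Within families of related genes, the balance of the members per 1000 exon bases shifted, which is given without a test. UNC13A made up 1.38, 0.851 and 1.06% of the summed UNC13 level in the MYC WT libraries against 6.47, 8.43 and 9.11% in MYC MUT. On average this was 1.10% ± 0.265 (SD, n = 3) in MYC WT and 8.00% ± 1.37 in MYC MUT, so UNC13B was the main member in both lines. NRXN2 made up 13.8% ± 1.40 of the level of the 2 neurexins in MYC WT against 46.4% ± 3.45 in MYC MUT. The MYC MUT libraries were close to an even balance, and the MYC WT libraries held mostly NRXN3. SYN1 held 6.66% ± 0.677 of the synapsin level in MYC WT and 22.3% ± 1.68 in MYC MUT. SYN2 was the main synapsin in both, with 85.2% ± 0.676 in MYC WT and 67.2% ± 1.83 in MYC MUT. RAB3C held 9.81% ± 0.948 of the RAB3 level in MYC WT and 9.83% ± 0.396 in MYC MUT, and the RAB3 shares of both lines overlapped. SV2A held 99.8% ± 0.104 of the SV2 level in MYC WT and 98.3% ± 0.205 in MYC MUT, where SV2C accounted for 1.3% ± 0.192.

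**Figure D4:**
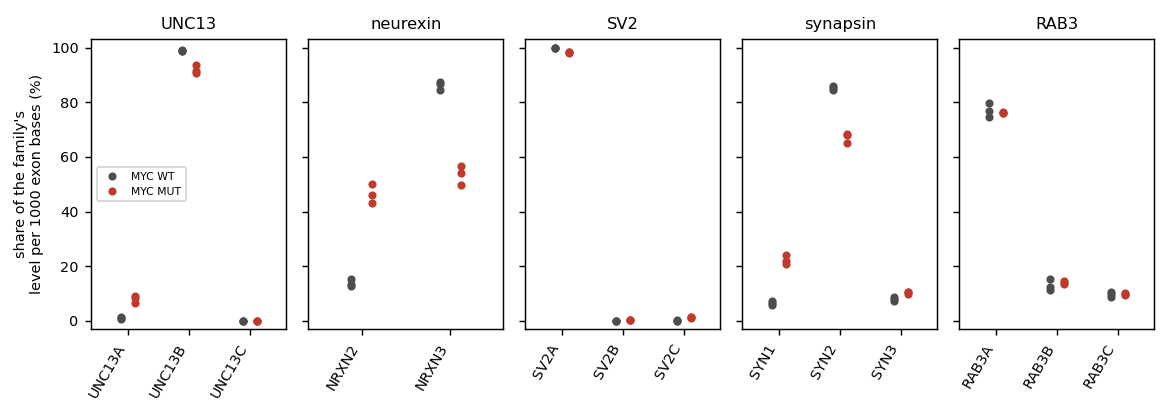
Share (percent) of each member in the summed level per 1000 exon bases of its family, in each library, with MYC WT in grey and MYC MUT in red. NRXN2 goes on average from 13.8% in MYC WT to 46.4% in MYC MUT, and UNC13A from 1.10% to 8.00%.

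The 9 genes under the minimum count had means of 0 to 6.11 normalized counts in MYC WT and 0 to 15.3 in MYC MUT. CPLX3 and SLC17A6 had no read in any library, which allows at most 3 reads in each by counting error. CPLX2, a relative of CPLX1, had 2 reads in MYC WT and 39 in MYC MUT over the 3 libraries of each line, a ratio of MYC MUT to MYC WT of 18.1 (95% interval 4.68 to 154). SV2B had 6 reads in MYC WT and 48 in MYC MUT, with a ratio of 7.41 (95% interval 3.17 to 21.2). Both pointed the same way as SV2C and CPLX1, and in a fit of all genes with any read they were called higher in MYC MUT (limma adjusted p = 0.00197 and 0.00122). SYT5 had 18 and 38 reads, with a ratio of 1.96 (95% interval 1.09 to 3.64), and SYT4 had 3 and 14 reads, with a ratio of 4.32 (95% interval 1.21 to 23.5). Neither was called in that fit (limma adjusted p = 0.0904 and 0.142). DOC2B, with 11 reads in MYC WT and 10 in MYC MUT, UNC13C, with 3 and 2, and SLC18A2, with 3 and 4, gave no difference that could be detected at this depth. The intervals cover counting error only.

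Some members share their place with other expressed genes. Of the 48, 13 overlapped a gene with a mean of at least 10 normalized counts, in each case one on the opposite strand, and 9 shared exon bases with one. The libraries were strand-specific, but whether the counting used strand is not stated in the sources used here, so reads of such pairs may have been mixed. SYT2 shared 27.03% of its exon bases with PPP1R12B, which was not called (-0.089 in MYC MUT). SYT9 shared 2.53% with SYT9-AS1, which was at 0.85 in MYC MUT on the log2 scale. TIMP1 lies within SYN1 and rose by 1.29 in MYC MUT, with no exon base shared. TIMP4 lies within SYN2, shared 2.69% of its exon bases, and had a log2 fold change of -1.96 where SYN2 was at 0.08.

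Other lists of the pathway place these genes in context, and the genes named from each are those with the largest log2 fold changes among the called. Of 30 tested relatives of the release machinery that are not among the 48, 8 rose (26.7%) and 2 fell (6.67%) in MYC MUT, to be read against 11.3% and 10.1% of all genes, as are the shares of the lists that follow. SYT14, a further synaptotagmin, had a mean of 34.8 normalized counts in MYC WT and 1066 in MYC MUT (log2 fold change 4.90, limma adjusted p = 2.92e-07). RAB27B, a GTPase of regulated secretion, had 74.1 and 224 (log2 fold change 1.58). RIMS2 rose by 1.31 in MYC MUT, while SNCG and STXBP5, which encodes the SNARE inhibitor tomosyn, were at -1.32 and -0.86.

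Of 30 tested SNAREs of general membrane traffic, 1 rose (3.33%) and 2 fell (6.67%) in MYC MUT. STX3 rose by 0.58, and STXBP3 and VAMP8 were at -0.53 and -0.53. Of 28 genes that retrieve vesicles by endocytosis, 3 rose (10.7%, near the share of all genes) and 6 fell (21.4%) in MYC MUT. SH3GL2, endophilin A1, rose by 1.23 and AMPH, amphiphysin, by 0.57 in MYC MUT, and STON1, BIN1 and EPS15 were at -1.32, -0.61 and -0.60.

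Dense core vesicles, which store peptides and hormones, showed rises in MYC MUT in 5 of 9 tested genes (55.6%) and no fall. The granins SCG3, VGF and CHGA rose by 2.60, 2.33 and 1.56. Of 22 postsynaptic scaffold and adhesion genes, 5 rose (22.7%) and 2 fell (9.09%) in MYC MUT, led by DLGAP1 (2.07), DLGAP3 (1.57) and CAMK2B (1.12), with NLGN1 and DLG3 at -0.55 and -0.53.

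Markers of cell types moved beside these genes. Of 16 tested neuron markers, 9 rose (56.2%) and 2 fell (12.5%) in MYC MUT, with MAP2, L1CAM and CELF3 up by 2.04, 1.98 and 1.67 and UCHL1 and NEFM at -0.83 and -0.58. Chosen after their values were seen, RBFOX3 and TUBB3, both among the 9, rose from means of 48.8 and 37.8 normalized counts to 114 and 95.3. The tested neuron markers without a call were ELAVL2 at -0.42, MAPT at 0.051, INA at 0.16, CELF5 at 0.40 and NCAM1 at 0.45. The 7 neuron markers under the minimum, RBFOX1, ELAVL3, ELAVL4, STMN2, DCX, NEFH and NSG2, had MYC MUT means between 0 for ELAVL4 and 11.2 for NEFH. Of 9 tested glia markers, 2 rose (22.2%) and 5 fell (55.6%) in MYC MUT. SLC1A2 was at 2.96 and OLIG1 at 1.65, and ALDH1L1 and GFAP were at -1.99 and -1.96. The mean of SLC1A2 was 2.74 normalized counts in MYC WT, under the minimum of 10, and 28.5 in MYC MUT. A gene that low in MYC WT is tested only if it is higher elsewhere, so its rise is a description. Of 10 tested kidney epithelium markers, 3 rose (30%) and 1 fell (10%) in MYC MUT (KRT8 0.77, LHX1 0.76, PAX2 0.69 and CUBN -1.15). The part of cell identity, of clones or of the lower MYC level in the results for release genes was not tested.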

How the data were processed

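Of 213 samples listed for the series, the 9 RNA-seq libraries were used, and other assays were not analysed here. The authors made poly(A)-selected, strand-specific libraries, used bwa mem, an aligner that is not splice-aware, on hg38, marked duplicates with Picard and counted reads on GENCODE genes; the counting tool is not given in the sources used here. The unit of the deposited values is a signal: the authors took read counts per gene and scaled each library by its DESeq2 size factor. Within a tolerance of 0.01, 100% of them gave whole reads, used for alternatives and read ratios only.

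Differences were tested with limma 3.58.1 under R 4.3.3 by lmFit and trended eBayes. The fit took log2(normalized count + 1) of all 9 libraries together, for the 20884 genes whose mean reached 10, and p-values were adjusted over these genes by Benjamini-Hochberg. The smallest exact two-sided permutation p for 3 libraries against 3 is 0.1. Exon lengths, positions and overlaps came from a GENCODE annotation on GRCh38. The 3 libraries of another line entered the fit and the minimum only, and results on that line and on some genes are not reported here. Same-numbered libraries were not taken as paired, since the correlation of their deviations was not above 0.1 in all of the pairs. It was 0.049 for replicate 3 of MYC WT and MYC MUT, but 0.328 for replicate 1 and 0.146 for replicate 2. Between differently numbered libraries of these lines it ran from -0.238 to 0.154, and whether a shared number marks a shared batch was not tested. A fit with a replicate block is therefore among the alternatives.

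Alternatives were pseudocounts of 0.1 and 10, other minimum counts and scalings, eBayes without a trend, fits of 2 groups, the replicate block, edgeR 4.0.16 and DESeq2 1.42.0 on recovered reads, other thresholds and leaving out libraries. The fits were also run on simulated counts with planted changes, the outcome of which is not given here and supports no call. The text names every member, MYC, REST and, of each other list, at most 3 called genes in each direction with the largest change. Further genes were named after their values were seen: RBFOX3, TUBB3, NEFL, UMOD and the neuron markers under the minimum or without a call. The genes, lists and tests were chosen with earlier results of these data known.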

Additional observations from a re-analysis of the deposited data

How the results depend on the processing

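Depth did not limit the more abundant genes, but 9 release genes were left out by the minimum mean of 10, and SNAP25 and SV2C rested on 15 and 7 reads in MYC WT. With 3 libraries per line the spread was poorly known, and calls close to a threshold depended on single libraries. Of the calls made, 18 of 21 in MYC MUT against MYC WT held under every alternative that tested the gene at the same thresholds, and none reversed. These 18 include SNAP25 and SV2C, whose direction was fixed by the minimum, so that their holding says nothing about stability. The exceptions at these thresholds were UNC13B, SYN3 and SV2A, and a stricter fold threshold ended more calls. Among the 18 tested genes without a call, 7 changed sign under at least 1, the largest of them at 0.080 on the log2 scale. A replicate block left 19 higher and 2 lower release genes in MYC MUT against MYC WT, where the same-numbered correlations were 0.328, 0.146 and 0.049, and it changed no call of a release gene. Over all genes the block gave 2605 higher and 2365 lower, against 2365 and 2111 in the main fit.

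Of the release genes, the number lower in MYC MUT against MYC WT was 1 under equal totals, under equal upper quartiles and with edgeR, 5 without MYC WT replicate 1 and a library that entered only the spread (an alternative chosen after seeing the data), 6 at an adjusted p alone and 0 at a log2 fold change beyond 1, and 1 to 4 when single libraries were left out. The number higher was 21 among all genes with any count, 16 at a minimum of 50, 20 at an adjusted p alone and 11 at a log2 fold change beyond 1, and 17 to 19 when single libraries were left out. For comparison, of the 37215 genes with any count 2783 were higher and 2231 lower, and a minimum of 50 gave 1735 and 1776 over all genes. Over all genes tested, an adjusted p alone gave 3880 higher and 4141 lower genes in MYC MUT against MYC WT. A log2 fold change beyond 1 gave 1085 and 563. These counts differ by the construction of the threshold. For the other changes the cause was not tested.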
